A study of Rattus norvegicus with 183 samples.

Results

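The libraries compared here are the posterior ventral tegmental area samples richest and poorest in transcripts of white matter, the myelinated fibre tracts of the brain. The ventral tegmental area is a midbrain region that holds dopamine neurons and is bordered and crossed by such tracts. PolyA RNA was sequenced from outbred heterogeneous stock rats, and 152 of the 183 samples described have values. All samples share 1 tissue label, and the labels give no treatment, sex, age or batch. Library titles carry a decimal identifier or a hexadecimal one, and what the 2 formats stand for is not given in the labels.

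The sides were chosen by measured values of the same libraries. Libraries with at least 10 counts per 1e6 counts of the library (CPM) of Th, the gene for the rate-limiting enzyme of dopamine synthesis, were kept, which left 141. These were ranked by a score, the mean log2(CPM + 1) of Mag, Mog and Cnp, 3 genes of the myelin sheath. The 30 highest libraries form the rich side, the 30 lowest form the poor side, and 81 fall on neither. The 60 libraries of the sides are therefore extremes of 1 ranking and not treatment groups. The rich side holds 12 decimal and 18 hexadecimal libraries and the poor side 6 and 24 (Fisher's exact test, two-sided p = 0.158). The submitters had relabelled 2 rich and 1 poor library and recovered 2 rich and 3 poor libraries from an unknown label.

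Oligodendrocytes wrap axons in myelin, a stack of membrane rich in cholesterol, galactolipids and a few abundant proteins. They arise from precursor cells that express Pdgfra, pass through a newly formed stage and then switch on the myelin genes under transcription factors such as Sox10 and Myrf. In a piece of bulk tissue, fewer cells of a type and less RNA per cell cannot be told apart, and a difference between pieces can come from what was dissected.

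The ranking values are given as a description. The score ran from 8.50 to 8.90 in the poor libraries and from 9.21 to 9.54 in the rich ones. Its means differed by 0.58 log2 units. Mag, which encodes a myelin protein facing the axon, lay between 330 and 514 CPM (median 391) in the poor libraries and between 523 and 795 CPM (median 605) in the rich ones. Mog, which encodes a protein of the outer myelin surface, had medians of 196 and 293 CPM, and Cnp, which encodes a myelin enzyme, of 965 and 1367 CPM. The edges of the sides were continuous with the libraries outside them. The last rich library scored 9.210 and the next library 9.208, and the last poor library scored 8.897 and the next 8.899.

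**Figure D1:**
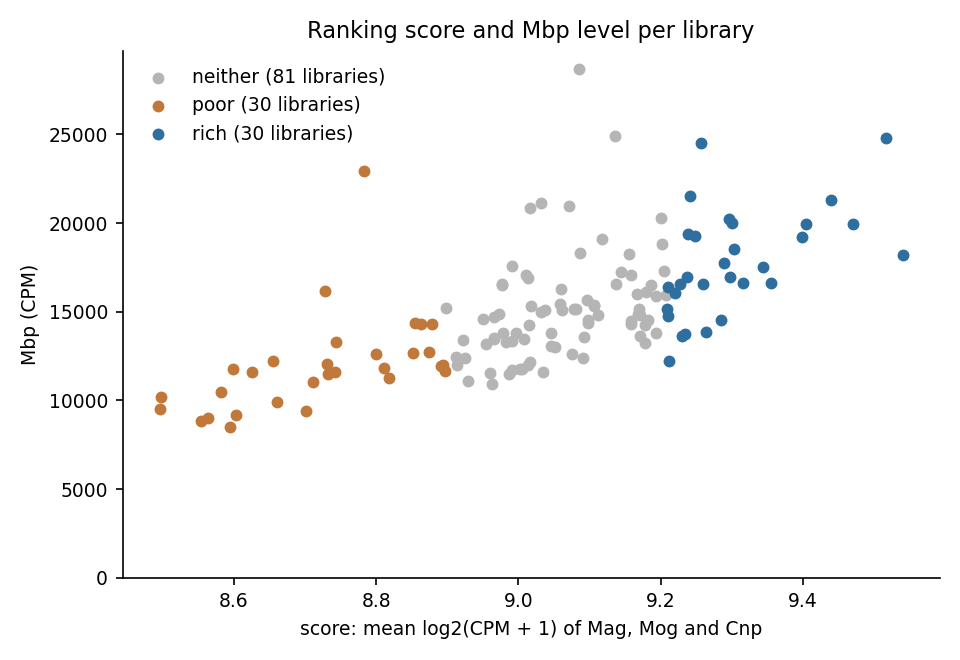
Ranking score of each of the 141 libraries (x axis, mean log2(CPM + 1) of Mag, Mog and Cnp) against the level of Mbp (y axis, CPM), a gene the ranking did not use. The rich and poor libraries are the ends of a continuous range, and Mbp ran from 8524 to 22950 CPM in the poor libraries and from 12240 to 24800 CPM in the rich ones.

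Promoters of 3 mature myelin genes that differed between the sides are printed as examples. All 3 are among the genes of that list with a match to ACAAAG. Sox10, which also differed, belongs to a family of factors that bind this core. A part of Sox10 in the differences of these genes was not tested. The sequences are RefSeq's promoter windows for GRCr8, 5′ to 3′ in the direction of the gene. They begin 173 (Hapln2), 17 (Opalin) and 135 (Mobp) bases before the outermost start of the annotated gene and run on into it. Capitals mark each match to ACAAAG on either strand.
Hapln2 (chr2:175794389-175794688, minus strand): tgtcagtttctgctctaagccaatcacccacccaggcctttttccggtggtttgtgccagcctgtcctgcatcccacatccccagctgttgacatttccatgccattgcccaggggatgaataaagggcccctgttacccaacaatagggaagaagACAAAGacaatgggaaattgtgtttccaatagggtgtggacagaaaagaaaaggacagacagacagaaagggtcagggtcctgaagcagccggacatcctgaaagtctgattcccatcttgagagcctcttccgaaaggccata
Opalin (chr1:249858141-249858440, minus strand): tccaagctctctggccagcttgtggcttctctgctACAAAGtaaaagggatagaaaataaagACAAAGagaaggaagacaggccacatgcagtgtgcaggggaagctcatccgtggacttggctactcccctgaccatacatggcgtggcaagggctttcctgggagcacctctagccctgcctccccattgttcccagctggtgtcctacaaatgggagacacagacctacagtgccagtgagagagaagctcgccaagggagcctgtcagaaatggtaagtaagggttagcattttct
Mobp (chr8:128746982-128747281, plus strand): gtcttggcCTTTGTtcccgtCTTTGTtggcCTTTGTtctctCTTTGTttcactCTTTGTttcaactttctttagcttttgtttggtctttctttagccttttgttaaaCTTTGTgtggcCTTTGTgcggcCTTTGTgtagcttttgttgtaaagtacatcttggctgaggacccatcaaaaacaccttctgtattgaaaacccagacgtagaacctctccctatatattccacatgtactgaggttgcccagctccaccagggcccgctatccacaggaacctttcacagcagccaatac

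Hapln2 encodes a matrix link protein of the node of Ranvier, Opalin a membrane protein of oligodendrocytes and Mobp an abundant basic protein of myelin. The Hapln2 window holds 1 match, the Opalin window 2 and the Mobp window 8. A promoter was found for 18 of the 24 genes of the mature myelin list. At least 1 match lay in 7 of these 18 genes (Cmtm5, Cnp, Hapln2, Mag, Mbp, Mobp and Opalin) and in 18.8% of all 33469 promoters. A gene was counted if any of its promoters matched, whereas the percentages are over single promoters. The counts and percentages are therefore not alike, and no enrichment was tested. Both strands were also searched for ACAATGG (3 of the 18, 3.90% of all promoters), ACAANG (8 and 42.1%), CANNTG (16 and 72.1%), CACGTG (0 and 6.42%) and TCACNCCAC (0 and 1.12%), and ACAANG overlaps each ACAAAG match. The patterns were picked by hand, and a match is a string of letters and not a shown binding site.

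A large share of the transcriptome differed between the sides, and with CPM scaling most of the calls were lower in the rich libraries. Of 15543 genes tested, 1977 were higher in the rich libraries (12.7%) and 4763 were lower (30.6%) in limma at an adjusted p below 0.05, with identifier format as a covariate. Differences are rich minus poor on the log2(CPM + 1) scale, which understates the change of low genes. The median difference over all genes was -0.07, and with median-of-ratios scaling in place of CPM the calls were 3218 higher and 3298 lower, so that 49.4% of calls were higher in place of 29.3%. The balance of higher and lower calls therefore depends on the scaling. The 81 libraries of neither side, which the sides did not use, gave a second measurement. In 80 of them (the library with another identifier form was dropped) the slope of each gene on the score, per SD of 0.09 units, rose for 522 genes (3.36%) and fell for 1867 (12%). A total of 337 genes (2.17%) were higher on the rich side and rose with the score, and 1307 (8.41%) were lower and fell. Only 3 genes passed both tests with opposite signs, and 6053 of the 6740 side calls had a slope of the same sign. In the limma test of whether side differences differed between the identifier formats, no gene passed and 1074 genes had an unadjusted p under 0.05.

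No difference in depth was detected between the sides. The libraries held 16.5 to 57.2 M (1e6) estimated counts on the rich side (median 24.0) and 15.2 to 36.3 on the poor side (median 23.0), and the means differed by 2.27 M (permutation test, two-sided, p = 0.216, adjusted over 4 properties 0.432). Genes with a count (medians 23460 and 23940, adjusted p = 0.882) and the share of ribosomal RNA (medians 1.15% and 1.01%, adjusted p = 0.882) gave no detected difference in the same permutation test. The fourth property, the share of counts in the mature myelin list without the ranking genes, had medians of 3.60% and 2.52%, and no p is given because the sides were ranked by genes of that list. Called genes differed in length. In the libraries of neither side the median genomic span was 10.2 kb for the genes rising with the score and 71.97 kb for those falling. Between the sides it was 20.3 kb for the genes higher in the rich libraries and 36.37 kb for the lower ones. Over all genes tested it was 24.1 kb, and the part of gene span in the calls was not tested. Genes of sex chromosomes also differed. Ddx3y, a Y-linked gene, exceeded 5 CPM in 20 of 30 rich and 9 of 30 poor libraries (Fisher's exact test added after the values were seen, two-sided p = 0.00921), and in 40 of the 81 others. Xist, the RNA that coats the inactive X chromosome, exceeded 5 CPM in 10 rich and 23 poor libraries. In 2 poor libraries both genes lay on the same side of 5 CPM. With the Xist level as a covariate, 1912 genes were higher and 4744 lower.

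The mature myelin list followed the ranking genes. Mag, Mog and Cnp belong to this list, so the choice of the sides favoured a difference in its other members. The p-values given below for mature myelin and other oligodendrocyte genes, also for slopes on the same score, therefore describe this ranking. They are not separate evidence of a difference. Of its 21 tested genes other than the rankers, 19 were higher in the rich libraries and 1 was lower, with a median difference of 0.44 against -0.07 over all genes, and 14 rose with the score among the libraries of neither side. The list's summed level was 20580 to 37980 CPM (median 25210) in the poor libraries and 28790 to 44900 CPM (median 36000) in the rich ones. All 30 rich libraries exceeded the poor median.

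Mbp, which encodes the basic protein that compacts the cytoplasmic faces of myelin, ran from 8524 to 22950 CPM (median 11700) in the poor libraries and from 12240 to 24800 CPM (median 17250) in the rich ones. The sides overlapped, with 2 rich libraries above every poor one and 21 poor libraries below every rich one. The difference was 0.63 (SE 0.07, adjusted p = 2.04e-10), and the slope was 0.12 per SD (SE 0.03, adjusted p = 0.00634).

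Gpr37, which encodes an oligodendrocyte receptor, lay between 161 and 289 CPM (median 222) in the poor and between 273 and 418 CPM (median 331) in the rich libraries, a difference of 0.58 (SE 0.05, adjusted p = 9.56e-15). Pllp, a myelin membrane protein gene, and Hapln2 differed by 0.61 and 0.58. Mobp differed by 0.44 (adjusted p = 2.51e-06), but its slope of 0.07 missed the threshold (adjusted p = 0.0864). Nfasc, which encodes the adhesion protein neurofascin, was the gene of the mature myelin list that did not pass, with medians of 472 and 480 CPM and a difference of 0.04.

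Schwann cells make peripheral myelin. Of 9 tested genes of the Schwann cell list, 4 were higher and 4 lower in the rich libraries (median difference 0.13), and the lower ones included Prx, Ncmap and Drp2 (-0.70, -0.53 and -0.38). The other ranking gave 1 lower and the meningeal covariate none. The 4 that were higher, Sox10, Mal, Pmp22 and Cdh19, include genes that oligodendrocytes express too.

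Surface, junction and axon support genes of oligodendrocytes included the gene with the smallest p-value of all genes tested, S1pr5. Of 17 tested, 15 were higher in the rich libraries and none was lower (median difference 0.45), and 8 rose with the score in the other libraries. S1pr5, a sphingosine-1-phosphate receptor gene of oligodendrocytes, lay between 53.3 and 92.5 CPM (median 68.9) in the poor libraries and between 76.1 and 133 CPM (median 110) in the rich ones. Of the rich libraries, 28 lay above every poor library. The difference was 0.67 (SE 0.05, adjusted p = 1.37e-16) and the slope 0.13 (adjusted p = 1.71e-07).

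Connexins form gap junctions. Of 10 connexin genes tested, 4 were higher in the rich libraries and 4 were lower (median -0.14). Gjb1 and Gjc3, connexin genes of oligodendrocytes, were higher by 0.68 and 0.30, and Gjd2, a neuronal connexin gene, by 0.27. Gjb2, a connexin of meningeal cells and astrocytes, was lower, with medians of 32.8 CPM in the poor and 12.9 CPM in the rich libraries and a difference of -1.07 (SE 0.17, adjusted p = 7.18e-07). The vascular connexin genes Gja4 and Gja5 were lower by 0.44 and 0.51 log2 units and Gjc1, another vascular connexin gene, by 0.27. The astrocyte connexin genes Gja1 (-0.15) and Gjb6 (-0.12) did not pass. With the mean of the meningeal fibroblast genes as a covariate, added after the data were seen, 4 were higher and none was lower, and Gjb2 and Gja5 turned to 0.03 and 0.17. Slc16a1, which encodes a lactate transporter, did not pass either (difference 0.01, adjusted p = 0.910).

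**Figure D2:**
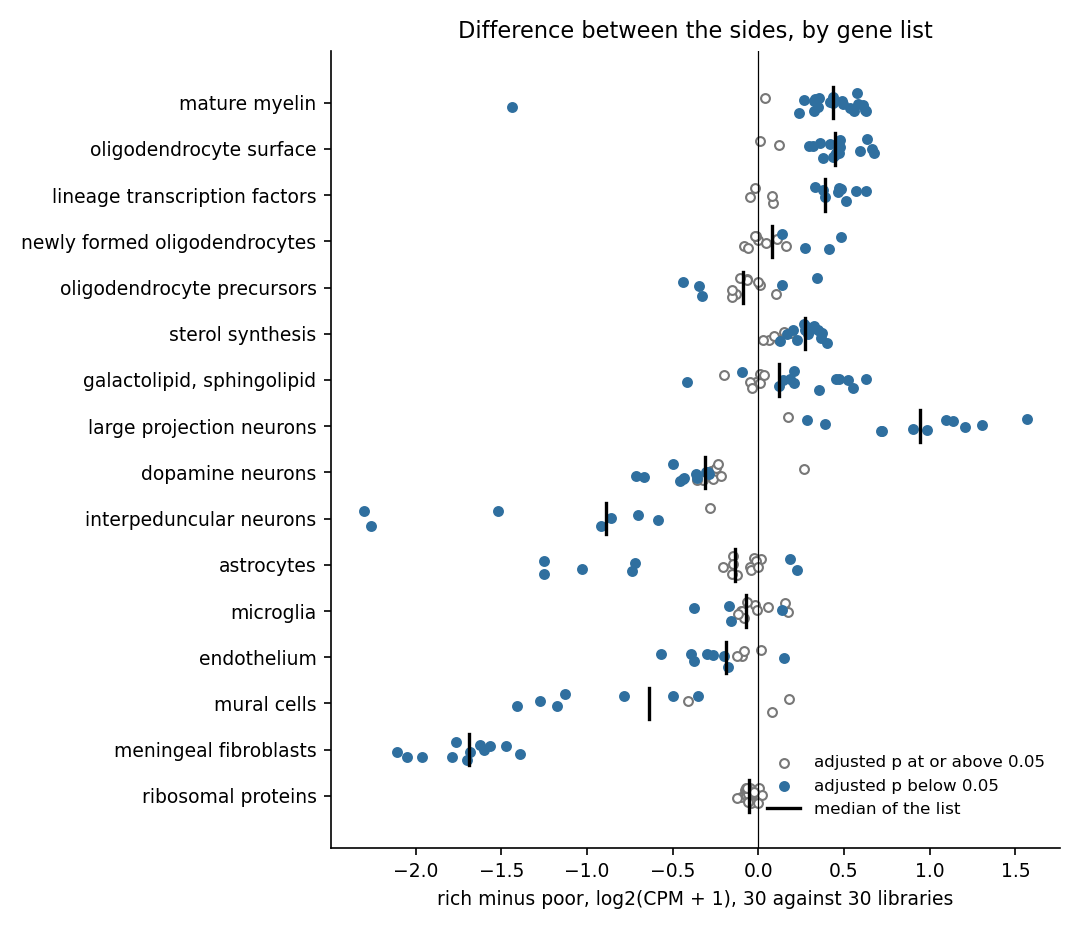
Difference between the sides for each tested member of 16 gene lists (x axis, rich minus poor on the log2(CPM + 1) scale, 30 against 30 libraries). Filled points passed an adjusted p of 0.05, open points did not, and bars are list medians, which run from 0.94 for large projection neurons down to -1.69 for meningeal fibroblasts.

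Genes of the oligodendrocyte lineage were described by stage, and differences between the stages were not tested. Of 13 transcription factors of the oligodendrocyte lineage, 9 were higher and none was lower on the rich side (median 0.39). Sox10, required for terminal differentiation, had medians of 101 and 142 CPM and a difference of 0.47 (SE 0.07, adjusted p = 3.46e-07). Myrf, which drives the myelin genes directly, lay between 149 and 246 CPM (median 192) in the poor libraries and between 206 and 342 CPM (median 255) in the rich ones, a difference of 0.46 (SE 0.05, adjusted p = 4.97e-12). Nkx6-2 and Olig1 differed by 0.63 and 0.57. The general factors Yy1 (-0.05), Nfia (0.08) and Zfp536 (-0.02) and the Wnt effector Tcf7l2 (0.09) did not pass.

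Of 12 genes of newly formed oligodendrocytes, 4 were higher on the rich side and none was lower (median 0.08). The 4 were Bcas1 (0.48), Enpp6 (0.41), Cd82 (0.27) and Gpr17 (0.14, adjusted p = 0.0420). The other 8 did not pass, among them the stage gene Itpr2 (-0.08). With the meningeal covariate 7 of the 12 were higher, and Itpr2 turned to 0.44.

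Of 14 genes of oligodendrocyte precursors, 2 were higher and 3 were lower on the rich side (median -0.09), and 3 fell with the score in the other libraries. Over all genes tested 12.7% were higher and 30.6% lower (median -0.07), and no direction is given for the precursor list. Pdgfra, the growth factor receptor gene that defines precursors, ran from 44.4 to 161 CPM (median 97.7) in the poor libraries and from 45.7 to 117 CPM (median 77.4) in the rich ones. The sides overlapped widely, and 9 poor libraries lay above every rich one. The difference was -0.35 (SE 0.11, adjusted p = 0.0114) and the slope -0.11 (adjusted p = 0.0248). Pdgfra is also expressed by meningeal fibroblasts, and with the mean of the meningeal fibroblast genes as a covariate its difference was 0.32 (adjusted p = 0.0115), so its direction depends on that level. Cspg4, the NG2 proteoglycan gene of precursors and pericytes, had medians of 35.6 and 31.7 CPM and a difference of -0.07 that did not pass. The other 2 lower genes were Cacng4 (-0.33) and Sox6 (-0.44), of which Sox6 is also a gene of dopamine neurons. With the meningeal covariate 4 of the 14 precursor genes were higher and 1 was lower.

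Genes that vary among mature oligodendrocytes were higher in 8 of 14 cases and lower in 1. Klk6, a secreted protease gene, ran from 69.6 to 220 CPM (median 92.0) in the poor and from 88.4 to 279 CPM (median 161) in the rich libraries, a difference of 0.68 (SE 0.10, adjusted p = 2.47e-07). Apod, which encodes a lipid carrier, had medians of 481 and 807 CPM and a difference of 0.71, and Qdpr, which encodes a pterin reductase, differed by 0.64. Ptgds, a prostaglandin synthase gene of oligodendrocytes and meninges alike, was the lower gene. It ran from 520 to 6054 CPM (median 1378) in the poor and from 368 to 1994 CPM (median 628) in the rich libraries, a difference of -0.90 (SE 0.19, adjusted p = 1.84e-04), which the meningeal covariate turned to 0.31.

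Myelin lipid synthesis was higher in part. Of 21 genes of galactolipid and sphingolipid synthesis, 11 were higher and 2 lower on the rich side (median 0.12). Ugt8, which makes galactosylceramide, lay between 231 and 344 CPM (median 275) in the poor and between 312 and 527 CPM (median 410) in the rich libraries, and 27 rich libraries lay above every poor one. The difference was 0.56 (SE 0.05, adjusted p = 3.26e-14). Fa2h, which hydroxylates the fatty acids of these lipids, differed by 0.63, Gal3st1, which makes sulfatide, by 0.52, and Cers2, the ceramide synthase for very long chains, by 0.36. Cers6, a ceramide synthase for shorter chains, was lower by 0.42 log2 units (adjusted p = 1.62e-06).

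Sterol synthesis was higher in 16 of 22 genes and lower in none (median 0.27), and 3 rose with the score in the other libraries. Cyp51, a demethylase of the late pathway, ran from 191 to 308 CPM (median 243) in the poor and from 250 to 419 CPM (median 318) in the rich libraries, a difference of 0.37 (SE 0.04, adjusted p = 5.29e-10). Msmo1 differed by 0.40 and Hmgcs1, an entry enzyme, by 0.23. Of 13 fatty acid genes 6 were higher and 1 was lower, with Acss2 at 0.42 and the abundant desaturase gene Scd2 at 0.28, while Fasn (0.10) and Acaca (-0.03) did not pass. In the other libraries the fatty acid genes did not follow that direction. None of the 13 rose with the score, 2 fell, and 9 slopes were negative (median slope -0.03).

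Of 12 genes tested from the iron handling list, 5 were higher in the rich libraries and 2 were lower (median 0.09). Over all genes tested 12.7% were higher and 30.6% lower. The 12 include Hepacam, which is also in the astrocyte list, so the counts are not of iron genes alone. With the meningeal covariate 3 were higher and none was lower. Tf, the transferrin gene, ran from 1027 to 1847 CPM (median 1336) in the poor and from 1661 to 2412 CPM (median 1932) in the rich libraries, and 29 poor libraries lay below every rich one. The difference was 0.56 (SE 0.04, adjusted p = 2.42e-15). Tf was added to the described genes after the values were seen, because the listed name Trf is absent from the file. Fth1, the ferritin heavy chain gene, differed by 0.32. Cp, the ceruloplasmin gene, was lower, with medians of 41.2 and 12.6 CPM and a difference of -1.35 (SE 0.24, adjusted p = 6.78e-06), which the meningeal covariate turned to 0.22.

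**Figure D3:**
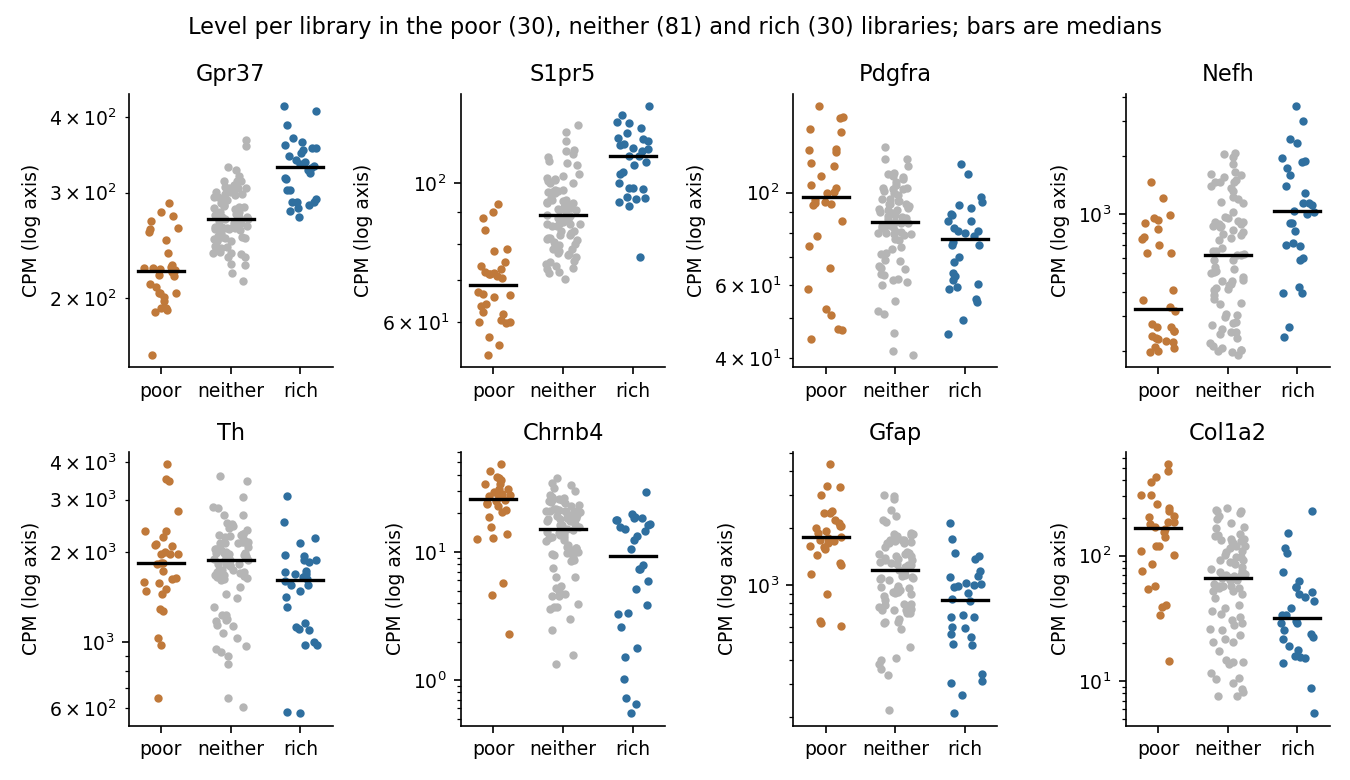
Level of 8 genes in every library (y axes, CPM on a log scale) for the poor (30), neither (81) and rich (30) libraries, with a bar at each median. Gpr37 and S1pr5 stepped up from poor to rich with little overlap, while Nefh, Th, Chrnb4, Gfap and Col1a2 overlapped widely.

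Genes listed for large projection neurons were higher in the rich libraries of this ranking. Of 12 genes of red nucleus and other large projection neurons, 11 were higher and none was lower (median 0.94). None of the 12 passed in the libraries of neither side, where 10 slopes were positive. Within the decimal libraries alone 2 of the 12 passed, and 2 of the 12 passed when the libraries were ranked by other myelin genes in place of Mag, Mog and Cnp. Nefh, the heavy neurofilament gene, ran from 198 to 1458 CPM (median 327) in the poor libraries and from 236 to 3594 CPM (median 1034) in the rich ones. The ranges overlapped, and 9 rich libraries lay above every poor one. The difference was 1.20 (SE 0.25, adjusted p = 8.49e-05), and the slope of 0.22 missed the threshold (adjusted p = 0.143). Nefl and Nefm, the partner subunits, differed by 1.18 and 1.11. Of 11 neurofilament and axonal cytoskeleton genes 5 were higher and none was lower, while the other ranking gave none higher and 2 lower. Scn4b, a sodium channel beta subunit gene of fast-firing neurons, had medians of 46.1 and 150 CPM and a difference of 1.57 (SE 0.28, adjusted p = 1.08e-05). Syt2, a fast synaptotagmin gene, differed by 1.14.

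Node and paranode genes had no common direction, with 8 of 22 higher, 7 lower and a median of 0.00. Under the other ranking none was higher and 12 were lower. Kcna1 (0.72), Kcna2 (0.38) and Scn8a (0.49), channel genes of mature nodes and their flanks, were higher, whereas Scn2a (-0.34), Cntn1 (-0.30) and Nrcam (-0.39) were lower. The axonal partner of the paranodal junction, Cntnap1, did not pass (-0.09). The other ranking turned both Kcna2 and Scn8a to -0.10.

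Dopamine neuron genes were lower on balance. Of 20 tested, 11 were lower and none was higher on the rich side (median -0.31), and 6 fell with the score in the other libraries, where all 20 slopes were negative. With median-of-ratios scaling 7 were lower and 1 was higher, and under the other ranking 4 were lower. Th did not pass. It ran from 650 to 3934 CPM (median 1842) in the poor and from 577 to 3094 CPM (median 1610) in the rich libraries, a difference of -0.28 (SE 0.14, adjusted p = 0.102), but with the meningeal mean as a covariate it was lower by 0.65 log2 units (adjusted p = 0.00907). Aldh1a1, which marks a subset of dopamine neurons, ran from 463 to 1482 CPM (median 1017) in the poor and from 318 to 1487 CPM (median 658) in the rich libraries, a difference of -0.71 (SE 0.13, adjusted p = 1.77e-05). Chrnb3, a nicotinic receptor subunit gene of these neurons, differed by -0.67 and had a slope of -0.22 (adjusted p = 0.0245). Slc6a3, the dopamine transporter gene, did not pass between the sides (-0.32, adjusted p = 0.242) and fell with the score in the other libraries (-0.27, adjusted p = 0.0421).

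Genes listed for interpeduncular or habenular neurons were lower in 7 of 8 cases (median -0.89). The interpeduncular nucleus borders the region at the midline. Pax7, a transcription factor gene of that nucleus, ran from 0.35 to 173 CPM (median 71.5) in the poor and from 0 to 92.5 CPM (median 18.9) in the rich libraries, a difference of -2.30 (SE 0.52, adjusted p = 3.06e-04). Chrnb4, a nicotinic subunit gene, had medians of 26.1 and 9.27 CPM and a difference of -1.52 (SE 0.29, adjusted p = 2.32e-05). All 8 slopes in the other libraries were negative and 1 of them, that of Chrna5, passed. Slc17a6, the vesicular glutamate transporter gene of subcortical neurons, was higher on the rich side, with medians of 123 and 198 CPM and a difference of 0.55 (SE 0.15, adjusted p = 0.00226), which the other ranking turned to -0.03 (adjusted p = 0.899). Slc17a7, the cortical transporter gene, exceeded 100 CPM in 1 rich and 2 poor libraries and did not pass (adjusted p = 0.202).

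Of 18 genes of the postsynaptic density and glutamate receptors, 12 were lower and none was higher (median -0.28), and 12 fell with the score in the other libraries. Gria2, an AMPA receptor subunit gene, ran from 83.2 to 217 CPM (median 178) in the poor and from 74.1 to 193 CPM (median 114) in the rich libraries, a difference of -0.51 (SE 0.09, adjusted p = 7.60e-06) with a slope of -0.14 (adjusted p = 0.0194). Camk2a differed by -0.72. Of 18 synaptic vesicle genes 7 were higher and 7 lower (median 0.03), while the other ranking gave none higher and 6 lower, and the decimal libraries alone none higher and 1 lower. A difference between the postsynaptic and the vesicle list was not tested. Nuclear genes of oxidative phosphorylation were higher in 7 of 18 cases and lower in none (median 0.16), and 7 rose in the other libraries. Under the other ranking 15 were higher. With the mean of the meningeal list as a covariate, added after the data were seen, the same list had none higher and 5 lower, so its direction depends on that level. None of 18 cytosolic ribosomal protein genes passed in limma (median -0.05).

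**Figure D4:**
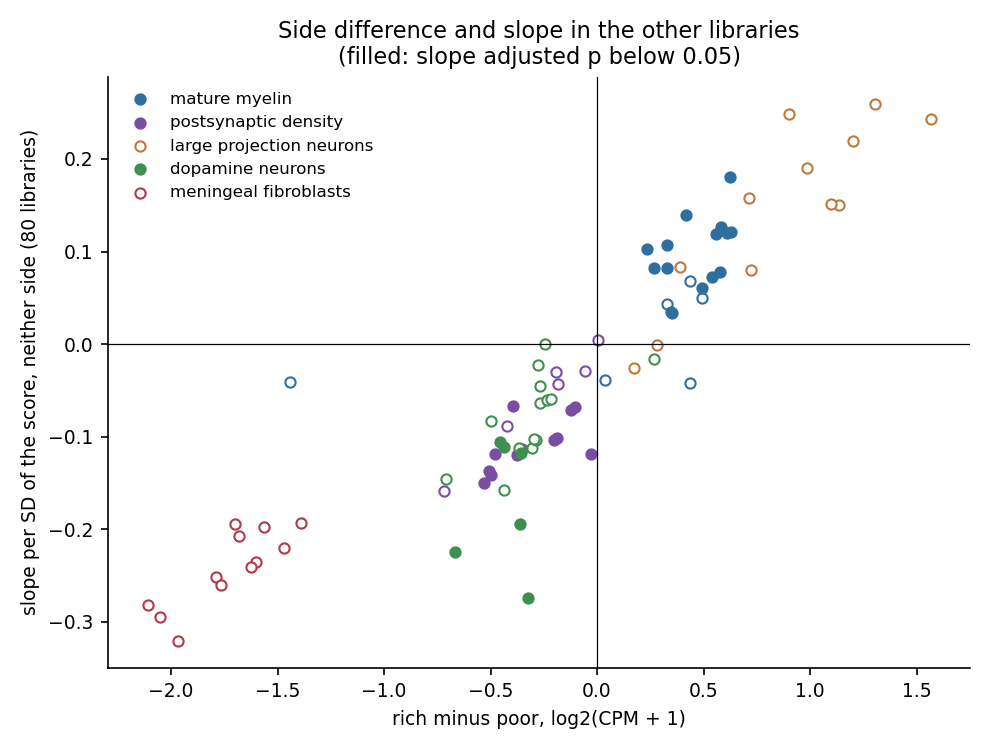
Difference between the sides (x axis, rich minus poor, log2(CPM + 1)) against the slope per SD of the score in the 80 libraries of neither side (y axis) for the members of 5 lists. Filled points passed an adjusted p of 0.05 for the slope, which 14 of 21 mature myelin genes, 12 of 18 postsynaptic genes and none of the meningeal or large projection neuron genes did.

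Meningeal genes gave the largest list difference of the 39 lists, by median. All 12 genes of meningeal fibroblasts, the collagen-making cells of the brain's covering, were lower in the rich libraries (median -1.69), and 9 of 12 were so within the decimal libraries alone. All 12 slopes in the other libraries were negative and none passed in limma. The list's summed level ran from 187 to 4434 CPM (median 1330) in the poor libraries and from 67.2 to 1486 CPM (median 294) in the rich ones. Of the rich libraries, 1 exceeded the poor median. Col1a2, a fibrillar collagen gene, ran from 14.5 to 532 CPM (median 167) in the poor and from 5.54 to 228 CPM (median 31.6) in the rich libraries, a difference of -1.97 (SE 0.31, adjusted p = 8.53e-07). Igf2, a growth factor gene of meninges and choroid plexus, had medians of 720 and 151 CPM and a difference of -2.11 (SE 0.30, adjusted p = 1.54e-07). None of the 12 was at 0 in the medians of either side.

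**Figure D5:**
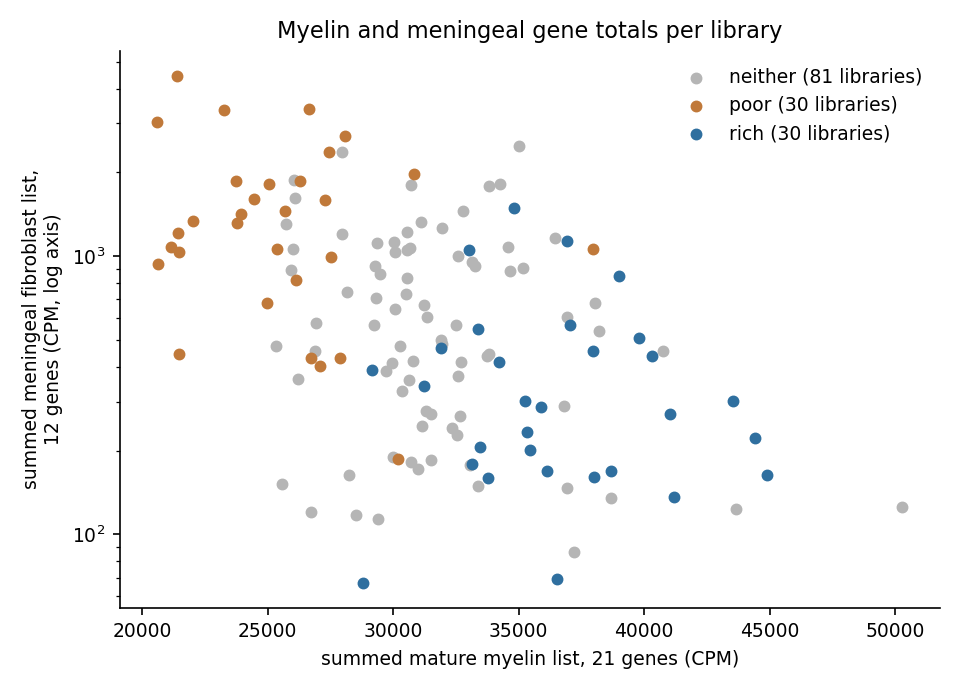
Summed level of the 21 tested mature myelin genes (x axis, CPM) against the summed level of the 12 meningeal fibroblast genes (y axis, CPM on a log scale) in each of the 141 libraries. Poor libraries sat mostly at the upper left (medians 25210 and 1330 CPM) and rich ones at the lower right (medians 36000 and 294 CPM), with overlap on both axes.

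Mural, endothelial and ependymal genes were lower in more cases than the 30.6% of all genes tested. Of 10 mural cell genes 7 were lower and none was higher (median -0.64), with Myh11, a smooth muscle myosin gene, at medians of 121 and 38.1 CPM and a difference of -1.41 (SE 0.25, adjusted p = 9.96e-06), which the meningeal covariate turned to 0.10. Of 12 endothelial genes 7 were lower and 1 higher. Cdh5, the endothelial cadherin gene, differed by -0.57 (0.01 with the meningeal covariate), and Cldn5, a tight junction gene, did not pass (0.02). Of 6 ependymal genes 5 were lower. Of 6 erythrocyte genes 4 were lower, and none was under the other ranking, in the decimal libraries alone or with the meningeal covariate. The decimal libraries alone gave 1 mural, 1 endothelial and no ependymal gene lower.

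Of 18 astrocyte genes 5 were lower and 2 higher (median -0.14), near the shares over all genes tested (30.6% lower and 12.7% higher). Gfap, the intermediate filament gene of fibrous astrocytes and of the glial limit under the meninges, ran from 605 to 4352 CPM (median 1789) in the poor and from 209 to 2120 CPM (median 834) in the rich libraries, a difference of -1.25 (SE 0.20, adjusted p = 1.02e-06). Vim (-1.25), Cd44 (-1.03), Aldh1l1 (-0.74) and Aqp4 (-0.72) were the other 4 lower genes, of which Vim and Aldh1l1 turned to 0.10 and 0.07 with the meningeal covariate, where Gfap was at -0.30 and did not pass. Slc1a2, the main astrocyte glutamate transporter gene, did not pass (0.01), and Aldoc was higher by 0.23 log2 units. Of 14 microglial genes 3 were lower and 1 higher, but median-of-ratios scaling gave 1 lower and 3 higher and the other ranking 1 lower and 5 higher, so no direction is given for them. Cx3cr1 did not pass (-0.02).

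With the meningeal mean as a covariate, none of the mural, endothelial or astrocyte genes was lower, 1 of 6 ependymal genes was lower, 15 of 21 mature myelin genes were higher and 16 of 17 oligodendrocyte surface genes were higher. In the same fit 3 of the 8 interpeduncular or habenular genes, 6 of the 20 dopamine neuron genes and 2 of the 18 postsynaptic genes were lower. Higher in that fit were 6 of the 12 large projection neuron genes and 9 of the 22 sterol genes. Over all genes it gave 1568 higher and 1146 lower, so the excess of lower calls was not kept. The meningeal and myelin levels differ between the same libraries, and which of them another gene follows was not tested.

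The rule for further genes took those that passed in both fits with the same sign and the same direction in both identifier formats, ordered by the size of the side difference. Among the 15 higher genes were Plvap (1.05), a gene of fenestrated vessels, Pla2g3 (0.99), a secreted phospholipase gene, Htra1 (0.68), a secreted protease gene, and Gpr62 (0.64), an oligodendrocyte orphan receptor gene. Pla2g3 ran from 1.57 to 9.89 CPM (median 4.06) in the poor and from 3.85 to 19.2 CPM (median 9.90) in the rich libraries, and 15 rich libraries lay above every poor one. The 15 also included S1pr5, Gjb1, Klk6, Apod and Qdpr, which are in the lists above, and 2 uncharacterised loci.

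Among the 15 lower genes, Wnt4, which encodes a secreted signal, ran from 5.21 to 46.98 CPM (median 21.1) in the poor and from 2.38 to 15.9 CPM (median 6.01) in the rich libraries, and 22 poor libraries lay above every rich one. Its difference was -1.52 (SE 0.19, adjusted p = 4.10e-09). Kit, a receptor tyrosine kinase gene, had medians of 101 and 40.0 CPM and a difference of -1.16 (SE 0.15, adjusted p = 1.14e-08), and 18 poor libraries lay above every rich one. Slc7a11, a cystine transporter gene, differed by -1.18, Stum by -1.48 and Grik3, a kainate receptor gene, by -1.13. Slc6a20a, an amino acid transporter gene, and Ddr2, a collagen receptor gene, differed by -1.64 and -1.33. With the meningeal covariate Grik3 turned to 0.15 and Slc6a20a to 0.39, and Ddr2 was at -0.02.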

How the data were processed

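Per the submitters' processing notes, the authors used kallisto 0.48. The deposited values are log2, and their behaviour is that of log2(estimated count + 1), so the unit was taken from the values; no genome build is named there. The values were back-transformed, scaled to CPM and expressed as log2(CPM + 1). Genes with a mean of at least 1 over the 141 libraries with Th were tested, apart from the 3 ranking genes. Side differences, slopes and the interaction with identifier format were fitted across all these genes with limma 3.58.1 (trend, R 4.3.3), with Benjamini-Hochberg adjustment, after the fit was tested on simulated data. Library properties were compared with 100000 permutations (scipy 1.17.1). Libraries are separate samples per the labels, which do not say that each is a separate animal, so p-values measure the spread between these samples. Totals were 15.2 to 57.2 M estimated counts. The members, the 39 gene lists (492 genes) and the tests were chosen with earlier results of these data known, so no list is independent evidence. Genes named are list members and, of the genes passing both fits with the same sign in both formats, some of the 15 largest rises and 15 largest falls; Tf, Ddx3y and Xist were added after their values were seen. Some list members are not reported here by name. The 31 samples labelled as removed and the 11 libraries without Th were not used. Promoters are RefSeq's for GRCr8.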

Additional observations from a re-analysis of the deposited data

How the results depend on the processing

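Counts of calls for the side comparison were 1977 higher and 4763 lower (6740 in all). Median-of-ratios scaling gave 3218 higher. The decimal libraries alone (12 against 6) gave 332 higher and 547 lower (879), where fewer samples entered. The meningeal mean as a covariate, added after the data were seen, gave 1568 higher and 1146 lower (2714). The other alternatives (another pseudocount, no filter, a stricter filter, no covariate, hexadecimal libraries, log2 total, 20 or 40 libraries a side, another ranking, libraries with uncorrected labels, libraries without much Slc17a7, Th or Xist as covariate, and CPM outside the oligodendrocyte lists) stayed within 1.5 times for these 3 counts.

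Counts for the slope, 522 rising and 1867 falling (2389 in all), were less stable. Median-of-ratios scaling gave 962 and 1100. Testing every gene with a count gave 205 and 702 (907), no covariate 117 and 193 (310), decimal libraries alone 1 and 0 (1), hexadecimal libraries alone 19 and 3 (22), and the meningeal covariate 121 and 135 (256). The share of rising calls, 21.9%, was 46.7% with median-of-ratios scaling, 37.7% without a covariate, 86.4% in the hexadecimal libraries and 47.3% with the meningeal covariate. The single formats also hold fewer libraries (35 decimal and 45 hexadecimal). The causes of these changes were not tested.

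With the meningeal covariate these side differences turned sign: Acaca 0.23, Aldh1l1 0.075, Cdh5 0.013, Cmtm5 -0.038, Cp 0.22, Gja5 0.17, Gjb2 0.027, Grik3 0.15, Itpr2 0.44, Myh11 0.10, Pvalb -0.0060, Pdgfra 0.32, Ptgds 0.31, Slc6a20a 0.39, Vim 0.10, Itgbl1 0.26, Angptl2 0.18, Dcdc2 0.0028 and F13a1 0.36. With the Xist covariate Ddx3y turned to -0.63. Ranked by the other myelin genes, Kcna2 was -0.10, Nfasc -0.16, Scn8a -0.10 and Slc17a6 -0.029. No paired analysis was possible because the replicate numbers are accession order within an identifier format, and the sides share no pairs.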

Other observations

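The remaining gene lists are given by their counts, to be read beside the 12.7% higher and 30.6% lower over all genes tested. Among 11 genes of GABA neurons, 4 were higher in the rich libraries and 3 were lower. Gad1, which encodes a GABA synthesis enzyme, was lower by 0.60 log2 units and Pvalb, a calcium-binding protein gene of fast-spiking neurons, was higher by 0.71 (-0.0060 with the meningeal covariate). Of 12 tubulin and tubulin-binding genes 5 were higher and 2 lower, and Tubb4a, the tubulin gene of myelinating cells, differed by 0.51. In the proteolipid family Gpm6b was higher (0.22) and Gpm6a, the neuronal member, was lower by 0.24. Of 10 immediate early genes 4 were lower and none was higher, with Nr4a1 at -0.44 and Fos at 0.00, and with the meningeal covariate none was lower. Of 14 glucocorticoid response genes 2 were higher and 4 lower, while the other ranking gave 4 higher and none lower, with Fkbp5 at -0.15 and no call.

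Cartpt, a neuropeptide gene, ran from 0.951 to 190 CPM (median 2.85) in the poor and from 1.55 to 613 CPM (median 9.60) in the rich libraries, a difference of 1.79 (SE 0.53, adjusted p = 0.00459), in a hypothalamic list with 2 of 6 genes higher and 1 lower. Of 7 cortical or hippocampal genes 1 was higher and 3 were lower, of 5 cholinergic or motor neuron genes 1 was higher, and of 4 genes of the serotonin list 1, Htr1a (-1.21), was lower. Of 5 choroid plexus genes 2 were lower, and 1 poor library held 11990 CPM of Ttr, the transthyretin gene, against a highest value of 16.4 CPM on the rich side.

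The 2 ways of ranking the libraries by myelin genes chose different libraries. Ranking by myelin genes other than Mag, Mog and Cnp kept 14 of the 30 rich and 21 of the 30 poor libraries, and none crossed to the opposite side. It called 2061 genes higher and 4007 lower.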
